A study of Homo sapiens with 4 samples.

Results

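Genes of the fibroblast growth factor (FGF) pathway and of its downstream feedback were followed across 4 established human germ cell tumour cell lines. They are the 10 genes FGF2, FGF4, FGF13, FGFR1, FGFR2, FGFR3, FGFR4, DUSP6, SPRY4 and ETV5, out of 19775 genes measured by at least 1 probe set assigned to a single gene. The members were selected on earlier results from the intensities of these same 4 arrays, so their levels are a description and carry no test. TCam-2 is a line from a testicular seminoma, NT2D1 comes from a lung metastasis of a testicular tumour and is labelled teratoma, GCT27 is labelled embryonal carcinoma, and GCT44 is labelled yolk sac tumour, the last pair from testicular tumours. Total RNA of each line was hybridized once to an Affymetrix array with 54675 probe sets, so there is 1 array per line, no replicate error and no p-value. No line was treated, and all cultures held 10% fetal bovine serum with penicillin and streptomycin. TCam-2 was grown in RPMI-1640 and the other 3 lines in Dulbecco's medium, and for that line the medium and the tumour subtype cannot be told apart.

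FGF ligands are secreted proteins that bind receptor tyrosine kinases together with heparan sulfate. The receptors signal through adaptors, RAS and RAF to the kinases MEK and ERK, and ERK activity induces ETS transcription factors as well as its own inhibitors, the Sprouty proteins and dual-specificity phosphatases. In human pluripotent cells FGF2 is used to keep cells undifferentiated, and FGF4 is a known target of SOX2 and OCT4. In the mouse embryo FGF4 from the epiblast directs neighbouring cells to primitive endoderm, the source of yolk sac endoderm.

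Values are scaled intensities on a linear scale, given as units. The median of all values, 76.4 units, served as a floor below which levels are not ordered, and a fold against a value under the floor is written as "at least". The size rule asked for a gap of at least 4-fold between a line and whichever of the others came closest to it, and genes that met it are said to be called. The marker genes of each label were checked first. The summed intensity of 5 seminoma and germ cell markers was 37715 units in TCam-2 and 3254 to 3967 in the other lines. TFAP2C, at 20557 units, was the largest part of the TCam-2 sum. However, KIT had 1144 units in TCam-2 and 1160 to 1771 elsewhere. PRDM1 had 2481 units in TCam-2, 1550 in GCT44, 177 in NT2D1 and 93.1 in GCT27. The 5 yolk sac and endoderm markers summed to 45246 units in GCT44 and 196 to 1266 in the others, with AFP at 372 and GATA4 at 104 units. SOX2 had 20575 units in NT2D1 and 18309 in GCT27, and NANOG 13322 and 22428 units in the same lines, so the line labelled teratoma carried pluripotency markers. NANOG was not particular to these lines, with 22390 units in TCam-2, where SOX2 had 391. LIN28A had 14828 to 30531 units over all lines. Differentiated neural markers summed to between 4545 and 18137 units over the lines and mesenchymal markers to between 4733 and 8079. Single mesenchymal markers differed more than their sums. LUM had 3354 units in TCam-2 and 47.6 to 241 elsewhere, and COL3A1 864 and 25.5 to 78.4. COL1A1 went the other way, with 792 units in TCam-2 and 3982 to 6093 elsewhere. THY1 had 2334 units in GCT27, 1668 in NT2D1, 124 in TCam-2 and 30.2 in GCT44. Both blood markers were below the floor in TCam-2, NT2D1 and GCT27, and in GCT44 CD3E had 88.4 units and PTPRC was below it. The 3'/5' signal ratio of the ACTB control was 4.21 in GCT44 and 2.49 to 2.97 in the other lines, while that of GAPDH was 1.04 in GCT44 and 0.90 to 1.09 in the others. Its part in the GCT44 values below was not tested.

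Promoter windows of called members are shown because the study's question was silencing in non-seminoma lines, for which CpG density is the sequence context. They run from 250 bases before to 50 bases after a gene start, are from RefSeq on GRCh38.p14, and read 5′ to 3′ on the gene's strand with every CpG in capitals. The first start listed for FGFR2, which was below the floor in GCT44, lies at chr10:121598395-121598694 on the minus strand. FGF2, also below the floor in GCT44, has its window at chr4:122826581-122826880 on the plus strand. DUSP6, which was below the floor in GCT27, has its window at chr12:89352452-89352751 on the minus strand. FGF13, lowest in NT2D1, has 2 listed starts on the minus strand, at chrX:139204974-139205273 and chrX:138739304-138739603. It was still above the floor in that line. FGF4, FGFR1 and ETV5 are not shown.
FGFR2: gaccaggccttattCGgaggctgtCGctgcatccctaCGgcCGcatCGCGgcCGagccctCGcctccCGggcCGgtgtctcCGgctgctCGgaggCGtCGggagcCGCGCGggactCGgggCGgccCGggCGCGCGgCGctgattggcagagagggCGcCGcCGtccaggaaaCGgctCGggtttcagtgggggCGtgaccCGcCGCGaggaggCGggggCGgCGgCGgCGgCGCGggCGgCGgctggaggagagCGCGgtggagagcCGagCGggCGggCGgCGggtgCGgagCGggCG
FGF2: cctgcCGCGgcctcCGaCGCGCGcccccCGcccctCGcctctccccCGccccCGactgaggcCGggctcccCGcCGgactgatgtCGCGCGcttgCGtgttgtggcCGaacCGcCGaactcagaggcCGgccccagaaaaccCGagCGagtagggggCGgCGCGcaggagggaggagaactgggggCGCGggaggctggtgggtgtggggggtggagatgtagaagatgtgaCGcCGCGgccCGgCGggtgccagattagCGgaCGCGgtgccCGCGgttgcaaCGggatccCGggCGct
DUSP6: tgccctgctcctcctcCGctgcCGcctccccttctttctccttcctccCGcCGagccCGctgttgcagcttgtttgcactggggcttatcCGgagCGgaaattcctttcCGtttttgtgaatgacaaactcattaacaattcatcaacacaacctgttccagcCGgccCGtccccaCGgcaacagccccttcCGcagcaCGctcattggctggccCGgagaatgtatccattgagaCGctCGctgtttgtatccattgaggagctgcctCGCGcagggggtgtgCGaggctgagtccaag
FGF13, start 1: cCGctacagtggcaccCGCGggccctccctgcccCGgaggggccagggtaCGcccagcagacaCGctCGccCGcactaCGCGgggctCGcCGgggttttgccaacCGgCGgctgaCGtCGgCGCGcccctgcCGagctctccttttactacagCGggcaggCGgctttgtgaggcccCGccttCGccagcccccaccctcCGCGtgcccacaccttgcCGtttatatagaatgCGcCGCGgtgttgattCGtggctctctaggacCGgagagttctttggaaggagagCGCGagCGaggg
FGF13, start 2: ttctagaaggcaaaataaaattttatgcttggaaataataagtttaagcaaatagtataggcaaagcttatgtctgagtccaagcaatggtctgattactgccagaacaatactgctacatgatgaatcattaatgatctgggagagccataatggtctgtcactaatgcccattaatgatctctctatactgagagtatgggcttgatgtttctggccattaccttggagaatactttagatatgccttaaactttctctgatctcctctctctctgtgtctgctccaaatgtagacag

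The windows differ in CpG content. The FGFR2 window held 52 CpG, more than 99.2% of 35116 promoters of the same length, and 4 further FGFR2 starts held 5 to 8. FGF2 held 41 CpG and DUSP6 19, against a median of 14 over all promoters. The first FGF13 start held 34 CpG and the second held 0. FGFR3 (51), SPRY4 (26) and the first FGFR4 start (30) were also above the median. Counted by window, as the median is, 7 of the 13 member windows were above it. They are 1 start from each of the 7 member genes with a window. These genes include FGFR3, FGFR4 and SPRY4, which were not called in any line. Methylation was not analysed here, and the CpG count is a description of the sequence. No member was called in TCam-2, so no call followed the contrast of the seminoma line with the non-seminoma lines. Short motifs were searched on both strands. The ETS core CCGGAA is in 17.2% of all promoters and in none of the 13 member windows, and GGAAGT, which can overlap it, is in 22.8% of promoters and in 1 of 5 FGFR2 and 1 of 2 FGFR4 windows. The octamer ATGCAAAT (1.77% of promoters) and the SOX core CATTGT (10.8%) were in none of them. The SP/KLF box GGGCGG is in 45% of promoters and was in 6 of the 13 member windows, a similar share, from 5 members. It occurred 5 times in the printed FGFR2 window and 3 times in that of FGF2, counting both strands and overlaps.

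Of the 10 members, 5 were called in a line, each time as lower, while 7.1% of the 14926 genes compared were called in any line. FGF2, FGF4 and FGFR2 were lower in GCT44, FGF13 in NT2D1 and DUSP6 in GCT27. Over all compared genes 1.69% were lower and 1.7% higher in GCT44. The shares were 0.241% lower and 0.523% higher in NT2D1, and 0.322% lower and 0.603% higher in GCT27. No member was called in TCam-2, where 0.744% of all genes were lower and 1.49% higher. All 10 members passed the filter on low values. A range over the lines of at least 4-fold was found for 7 members and for 20.5% of all genes. As the members were listed with these values known, nothing is read from these shares.

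**Figure D1:**
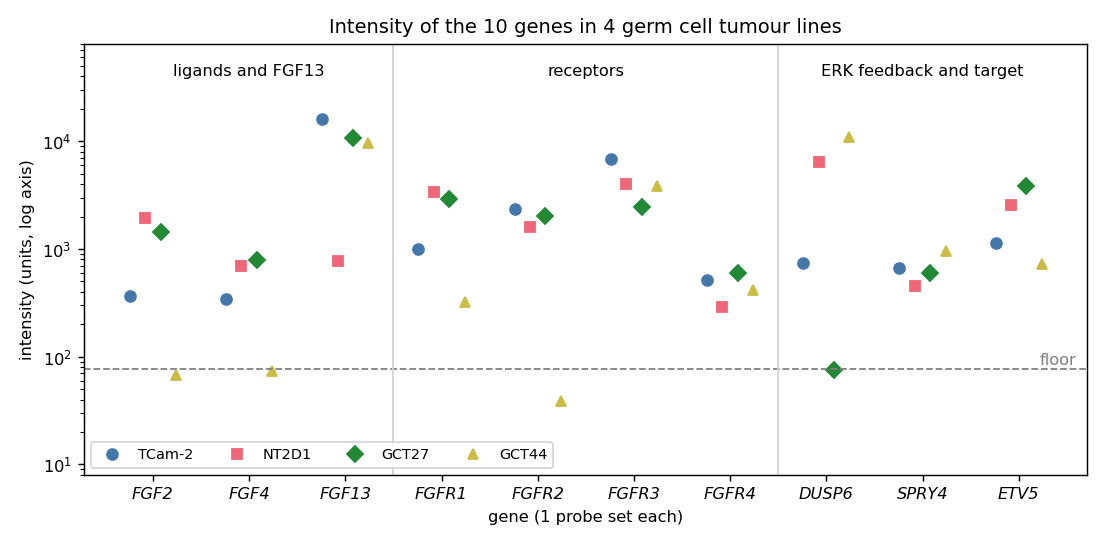
Intensity (log axis, units) of 1 probe set per gene in each line, 1 point per array, with the floor of 76.4 units dashed; heights of different genes are not comparable. GCT44 lies at or under the floor for FGF2, FGF4 and FGFR2, GCT27 for DUSP6, and NT2D1 is far below the other lines for FGF13 only.

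The secreted ligands FGF2 and FGF4 had the same lines at the low end. FGF2, which supports self-renewal of human pluripotent cells and lacks a classical secretion signal, had 67.4 units in GCT44, against 368 in TCam-2, 1953 in NT2D1 and 1423 in GCT27. It was thus under the floor in the yolk sac tumour line, at least 4.81-fold below TCam-2 and at least 25.6-fold below NT2D1. TCam-2 itself was 5.31-fold below NT2D1 for FGF2. These are bulk cultures, in which fewer expressing cells and less RNA per cell cannot be told apart. The second FGF2 probe set gave 5.49 units in GCT44, against 244 in TCam-2, 373 in NT2D1 and 741 in GCT27, so GCT44 was again lowest but the highest line changed to GCT27.

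FGF4, the ligand shared by epiblast and embryonal carcinoma cells, had 73.1 units in GCT44, against 344 in TCam-2, 696 in NT2D1 and 791 in GCT27. GCT44 was just under the floor and at least 4.5-fold below TCam-2, the next line. NT2D1 and GCT27 differed by 1.14-fold, and TCam-2 lay between them and GCT44. A second FGF4 probe set stayed below the floor in all 4 lines, from 9.71 to 49.6 units, and does not bear on the order. In GCT44 the pluripotency factors SOX2 and NANOG were at 6.41 and 2.29 units while LIN28A had 17340, and their part in the FGF4 value was not tested.

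FGF13 belongs to the FGF homologous factors, intracellular proteins that are not secreted, do not activate the receptors and are known for binding voltage-gated sodium channels and microtubules. It had 771 units in NT2D1, against 15998 in TCam-2, 10634 in GCT27 and 9572 in GCT44. NT2D1 stood alone at the low end, 12.4-fold below GCT44, and the other 3 lines lay within 1.67-fold of each other. Every value was above the floor, so this fold is measured and not a bound. FGF13 has a single probe set here, so no other probe set bears on it.

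The receptors fell into a pair that differed widely between lines and a pair that did not. FGFR2, the receptor whose isoforms pair with epithelial or mesenchymal ligands, had 38.9 units in GCT44, against 2353 in TCam-2, 1609 in NT2D1 and 2015 in GCT27. The 3 other lines lay within 1.46-fold of each other, and GCT44 was at least 21.1-fold below the nearest of them. Of 11 FGFR2 probe sets 6 were below the floor in all lines, and of the other 5 GCT44 was lowest on 4. A further bright one gave 3.95 units in GCT44, against 2724 in TCam-2, 2742 in NT2D1 and 3823 in GCT27. The exception was dim, with 174 units in GCT44, against 99.2 in TCam-2, 114 in NT2D1 and 47.3 in GCT27. What separates that probe set from the rest was not tested.

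FGFR1, the main receptor for FGF2 in pluripotent cells, had 324 units in GCT44, against 1001 in TCam-2, 3389 in NT2D1 and 2881 in GCT27. NT2D1 and GCT27 were high and within 1.18-fold of each other, TCam-2 was intermediate and GCT44 was lowest. GCT44 was 10.5-fold below NT2D1 but only 3.09-fold below TCam-2, so FGFR1 did not meet the size rule. All 7 FGFR1 probe sets rose above the floor in a line, with NT2D1 highest on 6 and GCT44 lowest on 5. On one of the exceptions, a probe set that can match several transcripts, the 4 lines lay within 1.41-fold, at 599 units in GCT44, 605 in NT2D1, 493 in GCT27 and 431 in TCam-2. These counts include near ties, such as 103 units in GCT44 and 104 in TCam-2 on a dim probe set. On another bright one NT2D1, at 3786 units, was 2.41-fold above GCT27, at 1570. There TCam-2 had 716 units and GCT44 437.

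FGFR3, a receptor best known for restraining bone growth, had 6786 units in TCam-2, against 3831 in GCT44, 3987 in NT2D1 and 2474 in GCT27. The whole range was 2.74-fold, with NT2D1 and GCT44 nearly level and TCam-2 1.70-fold above the next line. A second FGFR3 probe set stayed below the floor in all lines, from 15.8 to 62.2 units, so the FGFR3 levels rest on 1 probe set. FGFR4, which pairs with the endocrine ligand FGF19 in liver, had 598 units in GCT27, 517 in TCam-2, 417 in GCT44 and 286 in NT2D1, a range of 2.09-fold. Its other probe sets were below the floor in all lines, except 1 that reached 122 units in GCT27. Thus GCT44, with FGFR2 under the floor and FGFR1 at its lowest, had FGFR3 and FGFR4 intensities inside the range of the other lines.

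**Figure D2:**
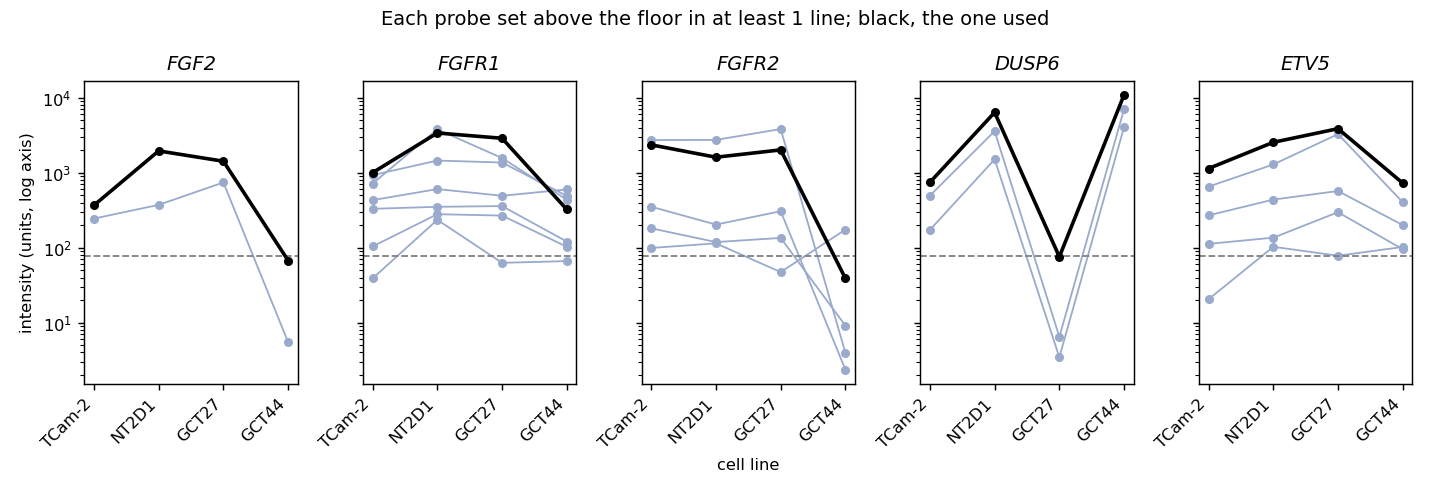
Intensity (log axis, units) in the 4 lines for each probe set of FGF2, FGFR1, FGFR2, DUSP6 and ETV5 that exceeded the floor (dashed) in at least 1 line, 1 array per line. The 3 DUSP6 probe sets share one shape with the minimum in GCT27, while 4 of 5 ETV5 probe sets peak in GCT27.

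DUSP6, a phosphatase that inactivates ERK and is itself induced by ERK activity, had the widest range of the members. It had 75.5 units in GCT27, against 744 in TCam-2, 6375 in NT2D1 and 10955 in GCT44. GCT27 was just under the floor, at least 9.73-fold below TCam-2, at least 83.4-fold below NT2D1 and at least 143-fold below GCT44. TCam-2 was intermediate, 8.57-fold below NT2D1. The other 2 probe sets gave the same order, with 6.47 and 3.46 units in GCT27, 495 and 173 in TCam-2, 3585 and 1508 in NT2D1 and 7054 and 4076 in GCT44.

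ETV5, an ETS factor that FGF signalling induces, had 3869 units in GCT27, against 1138 in TCam-2, 2546 in NT2D1 and 727 in GCT44. Its high and low ends were those of DUSP6 exchanged, with GCT27 highest and GCT44 lowest, 5.32-fold apart. The steps between neighbouring lines were small, 1.52-fold from GCT27 to NT2D1 and 1.57-fold from GCT44 to TCam-2, so no line met the size rule. GCT27 was highest and GCT44 lowest on 4 of the 5 ETV5 probe sets. The exception was dim, with 78.2 units in GCT27, 103 in NT2D1, 102 in GCT44 and 20.5 in TCam-2.

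SPRY4, a Sprouty protein that blocks receptor signalling upstream of ERK, had 951 units in GCT44, 663 in TCam-2, 602 in GCT27 and 451 in NT2D1. Its range of 2.11-fold was small beside that of DUSP6, and in GCT27, where DUSP6 was under the floor, SPRY4 lay between its values in NT2D1 and TCam-2. SPRY4 has a single probe set.

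Pairs of lines share arrays and are given side by side. GCT44 and GCT27 were at least 4-fold apart for 6 members, against 9.45% of all genes, with FGF2, FGF4, FGFR1, FGFR2 and ETV5 lower and DUSP6 higher in GCT44. GCT44 and NT2D1 were apart for 5 members (8.53% of all genes), with FGF13 higher and FGF2, FGF4, FGFR1 and FGFR2 lower in GCT44. TCam-2 and GCT44 were apart for 4 (10.1% of all genes), with FGF2, FGF4 and FGFR2 higher and DUSP6 lower in TCam-2. TCam-2 and NT2D1 were apart for 3 (8.26% of all genes), with FGF13 higher and FGF2 and DUSP6 lower in TCam-2. NT2D1 and GCT27, both SOX2-positive, were apart for 2 members (4.67% of all genes), DUSP6, higher in NT2D1, and FGF13, lower there by 13.8-fold. TCam-2 and GCT27 were apart for DUSP6 alone, against 7.37% of all genes. For the study's contrast of the seminoma line with the 3 non-seminoma lines, TCam-2 was the highest line for 3 members, FGF13, FGFR2 and FGFR3, by at most 1.70-fold, and the lowest for none.

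The rest of the pathway was taken from 7 lists of 87 genes, 77 of them not members. Of these 77, 62 were compared, 8 were below the floor in all lines and 7 were not analysed here. Of the 62, 8 (12.9%) were called in a line, against the 7.1% of all genes. The median range over the lines was 1.25 on the log2 scale for the 62 genes and 1.09 for all genes. Among 16 further ligands 10 were compared, and only FGF16 was called, with 441 units in TCam-2 and no other line above the floor, at least 5.77-fold higher in TCam-2. FGF16 has 1 probe set. FGF8 and FGF17, ligands of the gastrulating embryo, were below the floor in all lines. Of the FGF homologous factors other than FGF13, none was called. FGF11 had 687 units in GCT44, against 51.7 in TCam-2, 134 in NT2D1 and 349 in GCT27.

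Among 8 compared co-receptors and surface partners, 2 were called. FLRT3, a membrane protein that binds FGF receptors and promotes their signalling in Xenopus, had 10273 units in GCT44, against 170 in TCam-2, 1303 in NT2D1 and 109 in GCT27, 7.88-fold above NT2D1. Its second probe set gave 9.93-fold. As for DUSP6, GCT44 and NT2D1 were the high lines, while the lowest was GCT27 on one probe set and TCam-2 on the other. FLRT2, of the same family, had 9.05 units in TCam-2, against 1838 in GCT44, 1289 in NT2D1 and 485 in GCT27, at least 6.35-fold lower in TCam-2. Another FLRT2 probe set had 38.2 units in TCam-2, against 722 in GCT44, 63.8 in NT2D1 and 723 in GCT27, so NT2D1 was under the floor there too and TCam-2 did not stand alone. On the remaining one GCT44 reached 268 units and TCam-2, at 25.5, was again lowest. None of 14 adaptors and kinases of the RAS-ERK cascade was called and none had a 4-fold range, with a median range of 0.90 on the log2 scale beside the 1.09 of all genes. SOS2, an exchange factor for RAS, had the widest range of these, 2.78-fold. PTPN11, the phosphatase SHP2 that couples receptors to RAS, stayed between 10642 and 11418 units. None of 8 heparan sulfate enzymes was called. HS6ST2, a sulfotransferase that modifies the sugar chains FGFs bind, had 13008 units in GCT44, against 3959 in TCam-2, 4671 in NT2D1 and 1773 in GCT27.

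**Figure D3:**
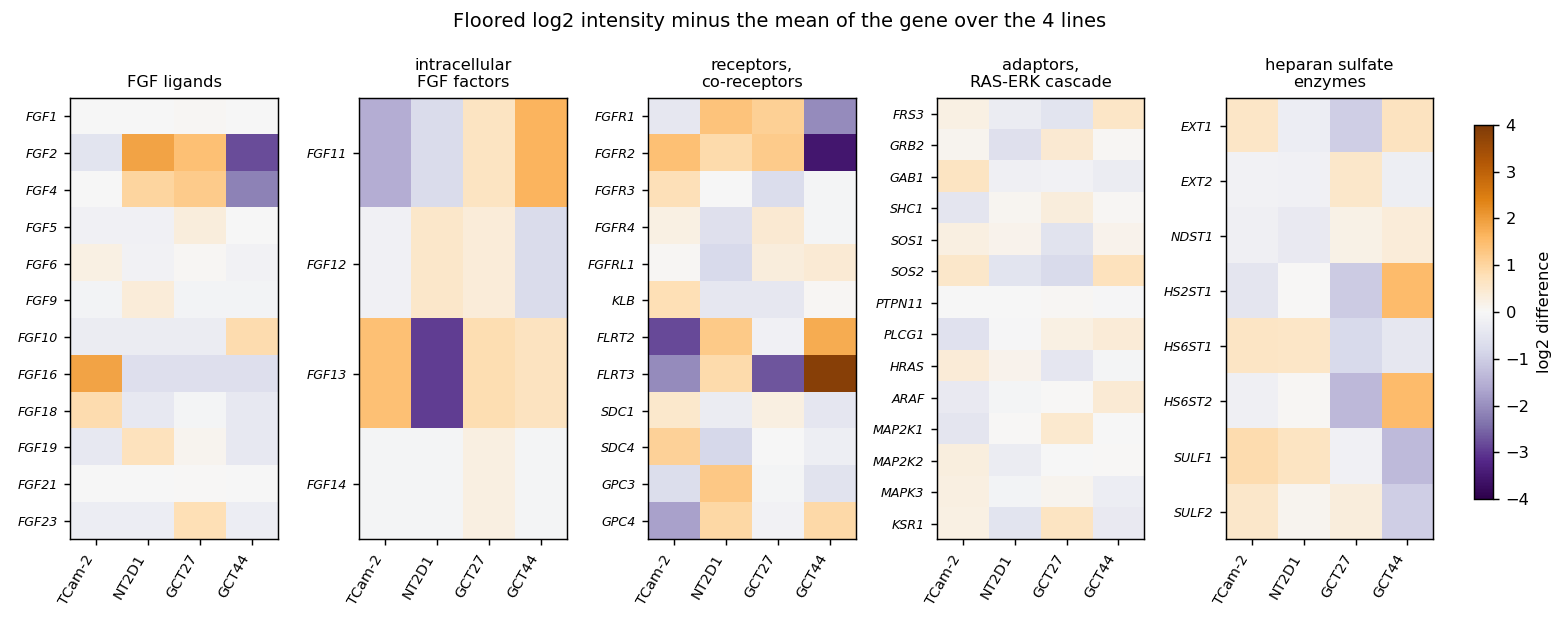
Difference of each gene's floored log2 intensity from its own mean over the 4 lines (colour, log2 units), 1 array per line, for the compared ligands, FGF homologous factors, receptors and co-receptors, cascade genes and heparan sulfate enzymes. No cascade gene has a 4-fold range, whereas FGF2, FGF4, FGFR1 and FGFR2 are low in GCT44 and FLRT3 is high there.

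Inhibitors other than DUSP6 and SPRY4 were called in 1 of 10 cases. DUSP5, a nuclear ERK phosphatase, had 494 units in NT2D1, against 2340 in TCam-2, 2038 in GCT27 and 4437 in GCT44, 4.13-fold lower in NT2D1. DUSP4, another nuclear phosphatase, had 1715 units in NT2D1 and 1162 in GCT44, against 309 in TCam-2 and 235 in GCT27. DUSP4 therefore had the same pair of high lines as DUSP6, in the other order, and the same lowest line, and DUSP5 did not. DUSP9 did not either, with 83.6 units in NT2D1 and 293 in GCT44, and DUSP7 had a range of only 1.53-fold. SPRY2 had 8109 units in GCT27, 5352 in GCT44, 3355 in NT2D1 and 905 in TCam-2, with its high end in the line where DUSP6 was under the floor. IL17RD, the membrane inhibitor also called SEF, had 8625 units in GCT27 and 7324 in NT2D1, against 1252 in TCam-2 and 1086 in GCT44. SPRY1 lay between 863 and 1201 units in all lines.

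Among 9 further ERK-induced factors and targets, 4 were called, against 7.1% of all genes, and 8 had a 4-fold range, against 20.5% of all genes. ETV1, related to ETV5, had 677 units in TCam-2, against 8207 in GCT27, 3674 in NT2D1 and 3018 in GCT44, 4.46-fold lower in TCam-2. Its 4 other probe sets were too dim for that, but each was also lowest in TCam-2. ETV4 had 575 units in GCT27, against 83.7 in TCam-2, 277 in NT2D1 and 82.1 in GCT44. ETV1, ETV4 and ETV5 were thus all highest in GCT27 with NT2D1 next. IER3, an early response gene, had 10398 units in GCT27 and 9392 in GCT44, against 2948 in NT2D1 and 2606 in TCam-2. PHLDA1 had 7450 units in GCT27 and 4367 in NT2D1, against 3080 in TCam-2 and 1255 in GCT44. The immediate early factors EGR1 and FOS had another pattern. EGR1 had 1081 units in NT2D1, against 8482 in TCam-2, 6702 in GCT27 and 6842 in GCT44, 6.20-fold lower in NT2D1, and its other probe sets gave 3.78-fold and 8.14-fold. FOS, which pairs with JUN in AP-1, had 314 units in NT2D1, against 3049 in TCam-2, 2577 in GCT27 and 2720 in GCT44, 8.20-fold lower in NT2D1. Like FGF13 and DUSP5, both were lowest in NT2D1. CCND1, the cyclin that drives cells into S phase, had 4.66 units in GCT44, against 767 in TCam-2, 6473 in NT2D1 and 2224 in GCT27, at least 10.0-fold lower in GCT44. Its second probe set gave at least 4.75-fold.

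**Figure D4:**
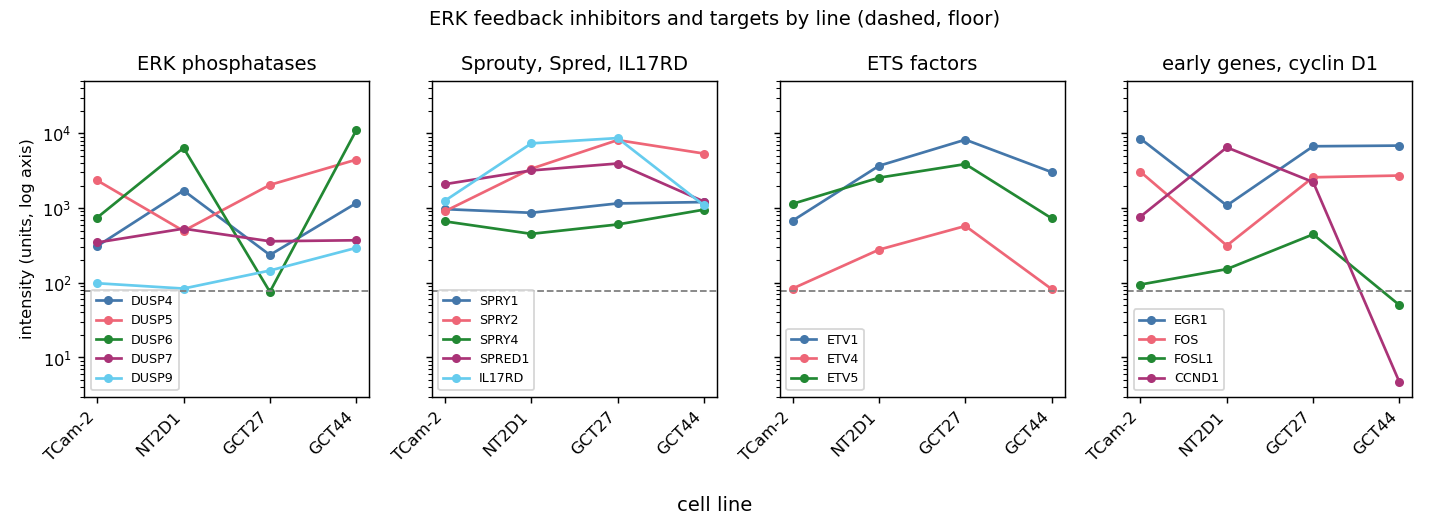
Intensity (log axis, units) of ERK phosphatases, Sprouty and related inhibitors, ETS factors, and early genes with cyclin D1 in each line, 1 array per line, with the floor dashed. DUSP4 and DUSP6 are high in NT2D1 and GCT44, the 3 ETS factors peak in GCT27, EGR1 and FOS dip in NT2D1, and CCND1 is under the floor in GCT44.

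The genes most like each member were taken by the root mean square difference of floored log2 values, each centred on its own mean over the 4 lines. With 4 points many genes match by shape alone, so the number of genes within 0.5 log2 is given first. It was 386 for ETV5, 89 for FGF4, 71 for FGFR1, 31 for FGFR2, 24 for FGF2, 8 for FGF13 and 0 for DUSP6. The limit is not scaled to a member's range, which was 2.41 log2 for ETV5 and 7.16 for DUSP6. The count therefore also depends on that range and does not rank members by how common their shape is. The nearest genes to DUSP6 were the homeobox gene MEIS2 (0.68), the zinc finger gene SP8 (0.79) and the cartilage collagen gene COL2A1 (0.80), each difference in log2 units. MEIS2 had 66.5 units in GCT27, against 332 in TCam-2, 2081 in NT2D1 and 3390 in GCT44. Its Pearson correlation with DUSP6 over the 4 lines was 0.997. FGF13 was nearest to GDF15 (0.23), a stress-induced cytokine, LGALS1 (0.24), which encodes galectin-1, and UBXN1 (0.25). GDF15 had 258 units in NT2D1, against 5254 in TCam-2, 4528 in GCT27 and 2614 in GCT44. FGFR2 was nearest to PDPN (0.10), the podoplanin gene, STOM (0.11) and ARHGEF10 (0.11). FGF2 was nearest to TBC1D4 (0.17), DDAH1 (0.27) and CLDN10 (0.28), and FGF4 to SLC2A10 (0.11), RPRM (0.11) and MICA (0.19). FGFR1 was nearest to ELAVL2 (0.11), IDH2 (0.13) and KLF12 (0.13), and ETV5 to CTSC (0.07), TMEM42 (0.09) and TMEM220 (0.10).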

How the data were processed

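The deposited values are intensity values of 4 Affymetrix arrays, 1 per line, on a linear scale. Their mean after trimming 2% from each end was 500.1 on every array. The submitters' processing notes name RMA without a version, which gives log2 values, so the scaling step is not given in the sources used here. Here log2 was taken of the values as deposited, with Python (3.11.15), numpy (2.4.6) and pandas (2.3.3). Of 54675 probe sets 41097 had 1 gene symbol in the array annotation, 1801 several and 11777 none. Where several such probe sets measured a gene, the one with the highest mean log2 value over the arrays was used. Genes that reached the floor of 76.4 units, the median of all values, in at least 1 line were compared, and lower values were set to the floor for folds. The number of arrays limits the precision, and p-values were not computed since each group holds 1 array.

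The members, pathway lists and rules were chosen with earlier results of these data known. Genes were named by rule: all members and their probe sets, every list gene meeting the size rule, up to 4 others in each list taken from those with the highest mean, the 3 genes most like each member with a 4-fold range, and the markers. FGF8, FGF17, SOS2, DUSP4, DUSP7, DUSP9, SPRY1 and ETV4 fall outside that rule and were named after their values were seen. Alternatives changed the probe set choice, floor, scaling, filter, threshold or lines compared. Those scaled to spiked-in controls, with linear means for the probe set, or without GCT44 were added after seeing the data.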

Additional observations from a re-analysis of the deposited data

How the results depend on the processing

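The 5 called members had the same direction and stayed past the threshold under every alternative that changed the scaling. The filter was not applied to members, and a threshold of 1 cannot remove a call. Dropping the floor can only widen these lower margins. Those alternatives are therefore no check on the 5 calls. With the median over probe sets, no member met the 4-fold rule in GCT44 (0 against 3), and the margins there were -1.97 for FGF2, -0.10 for FGF4 and 0.00 for FGFR2 on the log2 scale. For FGF4 and FGFR2 that median includes probe sets below the floor in all lines. For FGF2 it averages 2 probe sets, of which the dimmer had a margin of -1.68 in GCT44 by itself. Members apart were then 2 between GCT44 and GCT27, 2 between GCT44 and NT2D1 and 1 between TCam-2 and GCT44, and 1 further pathway gene was called in TCam-2, against 3. Without probe sets ending in _s_at or _x_at, FGF2, FGF13, FGFR3 and SPRY4 have none left, and FGFR2 is represented by the dim exception, with a reversed margin of 0.61 in GCT44. Then 1 member was called in GCT44 and 0 in NT2D1, and 2, 2, 1 and 2 were apart in GCT44 against GCT27, GCT44 against NT2D1, NT2D1 against GCT27 and TCam-2 against GCT44. Against the mean of the other 3 lines, 5 members were called in GCT44, FGF2, FGF4, FGFR1 and FGFR2 as lower and DUSP6 as higher. In NT2D1 3 were called by that measure, FGF13 as lower but FGF2 and DUSP6 as higher. Without the yolk sac tumour array, 2 members were called in NT2D1, FGF13 as lower and the added DUSP6 as higher. Scaled to the spiked-in controls, which lay -0.26 from their mean in GCT27 and 0.29 in GCT44 (log2), 3 members were apart between TCam-2 and GCT27. A threshold of 1 gave 6 members apart between TCam-2 and GCT27, 6 between TCam-2 and NT2D1, and 6, 5, 5 and 10 further pathway genes called in TCam-2, NT2D1, GCT27 and GCT44. Of the 21 genes named as most like a member, all 21 had a Pearson correlation of at least 0.95 with it over the 4 lines. They were picked for small differences over these same 4 points, so a high correlation follows from the choice and is no check. No paired analysis was possible because each line has 1 array.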
